A study of Rattus norvegicus with 72 samples.

Results

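Mbd1, Dnmt2 and Dnmt3a were the genes of the panel whose symbols begin with Mbd, Mecp, Dnmt, Hdac, Sirt, Kdm, Ehmt or Kat followed by a digit, and they made up 3 of the 145 genes measured. No other gene of the panel met this rule, so the account of chromatin regulators in these data rests on 1 reader of DNA methylation and 2 genes of the Dnmt family. Microfluidic qRT-PCR was run on tissue punches of the dorsal vagal complex (DVC), the brainstem region that receives visceral input, and of the central nucleus of the amygdala (CeA), a forebrain nucleus engaged in emotional and autonomic responses. The male Sprague Dawley rats were young on arrival and were killed after several weeks on the restricted diet described below. They were killed at 3 times of the light phase, ZT3, ZT5 and ZT9, where ZT counts hours from lights on. All groups shared the same history. The animals were housed singly, fed an alcohol-free Lieber-DeCarli liquid diet whose amount was limited to the calories taken by matched alcohol-fed rats, and given no further treatment, so no freely fed group and no dark-phase time point enters the comparisons. At ZT3, 7 DVC and 7 CeA samples were taken, with 17 and 14 at ZT5 and 15 and 12 at ZT9. Both punches of a region from 1 animal formed 1 sample, no animals were pooled, and 32 of the 40 animals gave both regions, so each replicate of a group was a separate animal.

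MBD1 binds methylated CpG through its methyl-CpG-binding domain and recruits repressive chromatin factors, and in the brain it is best known from neural stem cells. DNMT3A is a de novo DNA methyltransferase that places methyl groups on cytosines without needing a methylated template strand, and it is active in postnatal neurons. DNMT2 carries the fold of a DNA methyltransferase, but its established substrate is a cytosine in the anticodon loop of transfer RNAs, for which the gene is now called Trdmt1. Mbd1 (NCBI gene 291439) lies at chr18:70145093-70159744 of the rat assembly GRCr8 in RefSeq, Dnmt2 (gene 291324, RefSeq symbol Trdmt1) at chr17:81510740-81554036 and Dnmt3a (gene 444984) at chr6:32507316-32621678. RefSeq lists 3 pseudogenes named after Dnmt3a, 0 after Mbd1 and 0 after Dnmt2, and whether the Dnmt3a primers could also amplify a pseudogene was not tested. The assays read each transcript through 1 primer pair placed on both sides of an intron and a probe. A value thus covers only isoforms that hold both primer sites and the probe site. The primers are shown because, together with the probe, they define what was counted as each gene.
Mbd1 forward primer: tgtgtagaggaggacgagctaa
Mbd1 reverse primer: tgggtatgatgtggaagcaa
Dnmt2 forward primer: cctcctcgacatcgttaagc
Dnmt2 reverse primer: tcccttctatgtagcttccatacc
Dnmt3a forward primer: aacggaagcgggatgagt
Dnmt3a reverse primer: tgcaatcaccttggctttct
These are given 5′ to 3′ as the study designed them, and they are 18 to 24 bases long.

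Each value is a C_T, the PCR cycle at which the product becomes detectable, so it is a log2 measure in which 1 cycle less means about 2-fold more cDNA. C_T values were compared for 1 assay between samples, since each assay has its own efficiency. An exception given below sets 2 assays of a sample against each other and compares the result between time points. The values used below carry the authors' quantile normalization of all 72 samples unless stated otherwise, and a difference is given as −ΔΔC_T, the ZT5 mean minus the value, so that a negative number means less transcript than at ZT5. A gene was called where the Benjamini-Hochberg adjusted p of limma over all genes tested was at most 0.05.

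The samples were of even quality with few exceptions. DVC samples had 0 to 6 failed reactions, CeA samples 1 to 9, and 2 further CeA samples had 74 and 78 because a whole set of assays has no value there. All 3 genes belonged to the other 73 assays and had values in those 2 samples. The normalized values there rest on that set of assays alone. Slc6a2, the noradrenaline transporter that marks the noradrenergic neurons of the DVC, was measured in 38 of 39 DVC samples and 1 of 33 CeA samples. The GABAergic markers Gad1 and Slc32a1 were measured in both regions. Their differences, DVC minus CeA, were −0.19 (adjusted p = 0.127) and −0.23 (adjusted p = 0.0899) with limma, so these markers did not separate the CeA from the DVC. Of the 72 samples, 4 correlated with the mean of their region at r below 0.93, namely DVC ZT9 replicate 12 (0.881), CeA ZT5 replicate 1 (0.887), DVC ZT5 replicate 17 (0.906) and DVC ZT5 replicate 3 (0.926). The lowest value among the other samples was 0.948. Results that change without these samples are given both ways. Bulk punches cannot tell fewer cells of a type from less RNA per cell.

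Mbd1 transcript was lower at ZT3 and at ZT9 than at ZT5 in both regions with the authors' quantile normalization. In the DVC it stood at 0.573 of the ZT5 level at ZT3 and at 0.642 at ZT9, and in the CeA at 0.531 and 0.654, if each cycle is taken as a doubling. Dnmt2 ran in the same direction with smaller differences that were not called, and the mean differences of Dnmt3a from ZT5 were smaller than 0.25 cycles over all samples and not called.

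For Mbd1 in the DVC, the normalized C_T at ZT5 ranged from 21.74 over a median of 22.70 to 23.33 in 16 samples. At ZT3 it ranged from 22.80 over 23.37 to 24.39 in 6 samples, and at ZT9 from 22.23 over 23.35 to 24.13 in 15 samples. Of the 6 ZT3 samples, 6 lay above the ZT5 mean C_T and 4 above the highest ZT5 sample, while 13 and 8 of the 15 ZT9 samples did so. The groups thus overlapped. Of the 16 ZT5 samples, 10 lay below the lowest ZT3 C_T, but only 2 lay below the lowest ZT9 C_T. The Mbd1 reaction failed in 1 ZT3 and 1 ZT5 sample of the DVC, which enter no value here.

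The mean −ΔΔC_T of Mbd1 in the DVC was −0.80 at ZT3 (95% confidence interval −1.25 to −0.35) and −0.64 at ZT9 (−0.98 to −0.30). Both differences passed the test, with limma adjusted p = 0.0220 and 0.00846. The time point effect over the 3 groups had adjusted p = 0.00580, and Mbd1 held rank 7 of 145 genes by its p-value. In the DVC, 15 of 145 genes were called for a time point effect, which is 10.3% of them, and of the 3 genes described here 1 was called. Lower levels at ZT3 than at ZT5 were called for 1.38% of the genes and lower levels at ZT9 for 2.07%. ZT9 and ZT3 differed by 0.16 (−0.29 to 0.62, adjusted p = 0.845), so their levels could not be ordered.

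The CeA showed Mbd1 values of the same order. At ZT5 the C_T ranged from 22.70 over a median of 23.43 to 24.24 in 14 samples. It ranged from 23.90 over 24.24 to 24.96 in the 7 samples at ZT3, and from 23.03 over 24.01 to 24.96 in the 12 samples at ZT9. All 7 ZT3 samples and 11 of the 12 ZT9 samples lay above the ZT5 mean C_T, and 3 of each lay above the highest ZT5 sample.

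In the CeA the mean −ΔΔC_T of Mbd1 was −0.91 at ZT3 (−1.31 to −0.51, limma adjusted p = 0.00664) and −0.61 at ZT9 (−0.95 to −0.27, adjusted p = 0.0296). The time point effect had adjusted p = 0.00484, and its unadjusted p was the second smallest of the region. Here 5 genes, or 3.52% of those tested, were called for a time point effect, and 0.704% and 2.82% of the genes were called lower at ZT3 and at ZT9 than at ZT5. Of the 3 genes described here, Mbd1 alone was among them. The difference between ZT9 and ZT3 was 0.30 (−0.11 to 0.71, adjusted p = 0.656). Permutation tests of single differences borrow no spread from other genes, but they were run on the same quantile-normalized values. Those values depend on the other assays of a sample. For ZT3 against ZT5 the tests gave an exact p of 0.00113 in the DVC and 0.000172 in the CeA. For ZT9 against ZT5 they gave p = 0.00046 and p = 0.00114 from 100000 draws, two-sided and unadjusted.

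**Figure D1:**
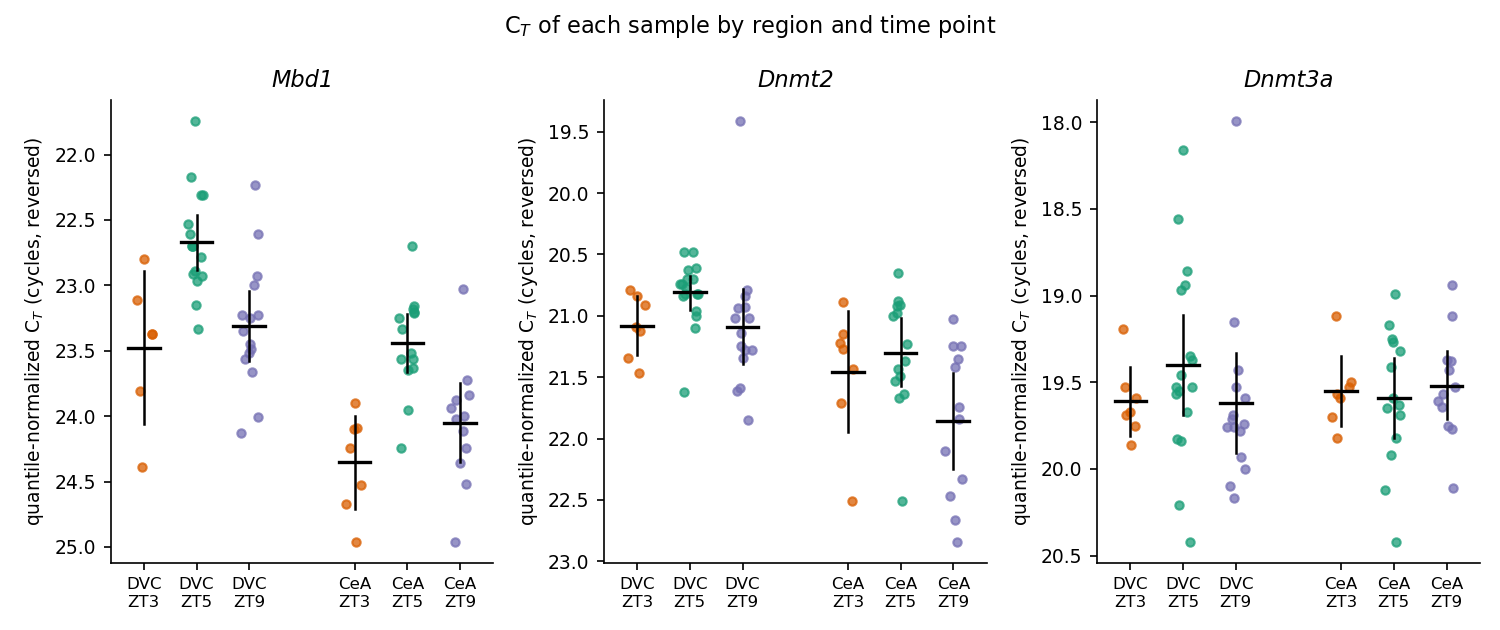
Quantile-normalized C_T of Mbd1, Dnmt2 and Dnmt3a in each sample, by region and time point. The y axis is in cycles and reversed so that higher points mean more transcript. Horizontal bars are group means and vertical bars their 95% confidence intervals. The Mbd1 samples of ZT5 centre above those of ZT3 and ZT9 in both regions, and DVC ZT9 replicate 12 is the highest point of its group for all 3 genes.

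The size of the Mbd1 difference depended on the normalization. Before normalization the mean C_T of Mbd1 in the DVC was 22.58 ± 1.21 (SD, n = 6) at ZT3, 22.79 ± 0.89 (n = 16) at ZT5 and 22.73 ± 1.02 (n = 15) at ZT9. In the CeA it was 23.91 ± 0.76 (n = 7), 24.09 ± 0.71 (n = 14) and 24.41 ± 0.81 (n = 12). The sample medians over all assays moved at the same time, for the DVC from 19.30 at ZT5 to 18.70 at ZT3 and 18.84 at ZT9, and for the CeA from 20.28 to 19.61 and 20.11. Unnormalized Mbd1 in the DVC thus differed little between time points, while most assays were detected earlier at ZT3 than at ZT5. In the CeA its unnormalized difference from ZT5 was 0.18 at ZT3 and −0.32 at ZT9, and the time point effect was not called in either region (limma adjusted p = 0.915 in the DVC and 0.620 in the CeA).

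Relative to the median gene, unnormalized Mbd1 in the DVC differed from ZT5 by −0.52 at ZT3 and −0.42 at ZT9. In the CeA it did so by −0.44 and −0.45. Centring each sample on its own median C_T gave −0.39 and −0.40 for the DVC, and −0.50 at both times for the CeA. Neither region was called for a time point effect then (limma adjusted p = 0.341 and 0.206), nor with the centring done within each of the 2 sets of assays (0.253 and 0.187). Quantile normalization of each region on its own kept both calls (0.00720 and 0.00733), as did the authors' values with each sample's median C_T before normalization as a covariate (0.00621 and 0.0119). Relative to the median gene, Mbd1 was below its ZT5 level at ZT3 and ZT9 in both regions under all 5 normalizations, whereas its call held under the 2 quantile normalizations only.

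**Figure D2:**
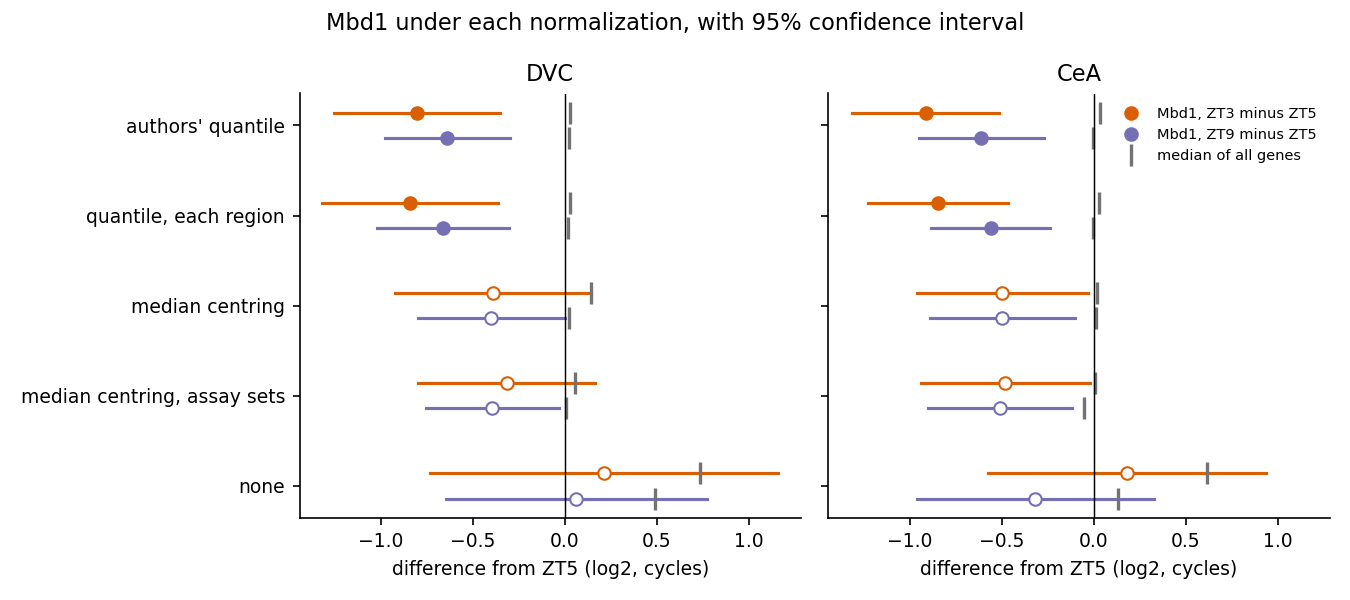
Mbd1 difference from ZT5 in log2 cycles with 95% confidence interval, in the DVC and the CeA, under the authors' quantile normalization, 3 other normalizations and none. Filled points have a limma adjusted p of at most 0.05, open points do not, and grey ticks mark the median of all genes. Mbd1 lies to the left of the grey tick in every row, and its points are filled under the 2 quantile normalizations only.

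A comparison of 2 assays within a sample needs no normalization, but it takes their efficiencies as equal, which was not tested. It was chosen after the dependence above had been seen. Relative to Dnmt3a in the same CeA sample, unnormalized Mbd1 was lower by 0.57 cycles at ZT3 (difference −0.57, exact permutation p = 0.0367) and at ZT9 (−0.57, permutation p = 0.0265) than at ZT5. In the DVC the corresponding differences were −0.17 (exact permutation p = 0.640) and −0.16 (permutation p = 0.505). Relative to Dnmt2, Mbd1 differed by −0.37 at ZT3 (exact permutation p = 0.121) and −0.17 at ZT9 (permutation p = 0.365) in the DVC. In the CeA it differed by −0.52 (exact permutation p = 0.0114) and −0.03 (permutation p = 0.876). Of 12 such comparisons among the 3 genes, 4 had an unadjusted p of at most 0.05, and the smallest adjusted over the 12 was 0.106, so no pair of genes was shown to change unequally.

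Animal numbers in the labels were unevenly spread over the time points, with no ZT3 animal among the lower numbers. The labels name no series, and the animals were divided for this comparison just below the first ZT3 animal into lower-numbered and higher-numbered ones. Among higher-numbered animals alone, Mbd1 differed from ZT5 in the DVC by −0.70 at ZT3 (limma adjusted p = 0.149) and −0.51 at ZT9 (adjusted p = 0.534), and the time point effect was not called (adjusted p = 0.258). The CeA kept its call, with −0.97 (adjusted p = 0.00152) and −0.85 (adjusted p = 0.00998). Among lower-numbered animals, ZT9 differed from ZT5 by −0.88 in the DVC (adjusted p = 0.0246) and by −0.38 in the CeA (adjusted p = 0.767). The direction was the same in both sets of animals and both regions, but the call held in different sets.

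Single samples also mattered. Without DVC ZT3 replicate 7, which had the highest C_T of its group, the ZT3 difference of Mbd1 in the DVC was −0.62 (limma adjusted p = 0.107), and without replicate 6 its adjusted p was 0.0826. In the CeA the ZT9 difference was not called without ZT5 replicate 5, 17 or 18 or without ZT9 replicate 12, with values from −0.59 to −0.53 and limma adjusted p from 0.0532 to 0.0826. Leaving out the 4 samples that correlated least with their region changed none of the 4 Mbd1 calls against ZT5, with limma adjusted p between 0.00298 and 0.0412. Clu, the secreted chaperone clusterin, was taken as a glial marker. In the DVC it was higher at ZT3 (0.96) and ZT9 (0.78) than at ZT5 with the authors' quantile normalization. The time point effect had limma adjusted p = 0.00580. Its normalized C_T at ZT3 spanned only 12.17 to 12.20, with an SD of 0.01 against 0.65 before normalization. Unnormalized, its mean C_T was 11.71 at ZT3, 12.12 at ZT5 and 11.63 at ZT9. The sample medians were also earlier at ZT3 (18.70) and ZT9 (18.84) than at ZT5 (19.30). The retinaldehyde dehydrogenase Aldh1a1 was listed with Clu as a glial marker, and how specific it is to glia here was not tested. It was not called for a time point effect in the DVC (limma adjusted p = 0.783). Nor was the microglial Ptgs1, which encodes cyclooxygenase-1 (adjusted p = 0.315). Slc32a1, the vesicular GABA transporter, had a time point effect in the DVC (adjusted p = 0.0276), with 0.29 at ZT3 and −0.56 at ZT9. None of the 5 marker genes tested in the CeA was called for a time point effect, with adjusted p from 0.414 to 0.907. The part of cell composition in the Mbd1 values was not tested.

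Dnmt2, the transfer RNA methyltransferase, varied little in the DVC. Its C_T ranged from 20.79 over a median of 21.09 to 21.47 in the 7 samples at ZT3, from 20.48 over 20.77 to 21.62 in the 17 at ZT5, and from 19.41 over 21.14 to 21.85 in the 15 at ZT9. All 7 ZT3 samples and 14 of 15 ZT9 samples had a C_T above the ZT5 median, but 0 and 1 lay above the highest ZT5 sample. The differences from ZT5 were −0.27 at ZT3 (−0.64 to 0.11, limma adjusted p = 0.567) and −0.27 at ZT9 (−0.57 to 0.02, adjusted p = 0.279).

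The time point effect of Dnmt2 in the DVC was not called (limma adjusted p = 0.421), and this rested on 1 sample. DVC ZT9 replicate 12, with a C_T of 19.41, was more than 1 cycle below every other DVC sample for Dnmt2. Without it the effect was called (adjusted p = 0.0382), and the ZT9 difference was −0.39 (adjusted p = 0.0152). With median centring the ZT3 difference was 0.03 and thus of the other sign.

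In the CeA, Dnmt2 ranged from 20.89 over 21.27 to 22.51 at ZT3, from 20.65 over 21.30 to 22.51 at ZT5, and from 21.03 over 21.79 to 22.84 at ZT9. ZT3 and ZT5 covered nearly the same range, and 9 of 12 ZT9 samples lay above the ZT5 mean C_T. The difference was −0.16 at ZT3 (−0.66 to 0.34, limma adjusted p = 0.903) and −0.56 at ZT9 (−0.98 to −0.13, adjusted p = 0.127). The time point effect had adjusted p = 0.247, and without CeA ZT5 replicate 6 the ZT9 difference was −0.65 and called (adjusted p = 0.0424). A permutation test of the time point effect of this gene alone, without adjustment, gave p = 0.0413.

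No time point difference was called for Dnmt3a, the de novo methyltransferase. In the DVC its C_T ranged from 19.19 over a median of 19.67 to 19.86 at ZT3, from 18.16 over 19.53 to 20.42 at ZT5, and from 17.99 over 19.74 to 20.17 at ZT9. The ZT3 values lay within the ZT5 range, and at ZT9 replicate 12 alone fell below it. The differences from ZT5 were −0.21 (−0.67 to 0.25) at ZT3 and −0.22 (−0.58 to 0.14) at ZT9, with limma adjusted p = 0.754 and 0.533. Of the ZT3 samples 6 of 7, and of the ZT9 samples 13 of 15, lay above the ZT5 mean C_T. The ZT9 difference was −0.34 without ZT9 replicate 12 (adjusted p = 0.175) and −0.14 without ZT5 replicate 17 (adjusted p = 0.632).

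In the CeA, Dnmt3a ranged from 19.12 over 19.57 to 19.82 at ZT3, from 18.99 over 19.61 to 20.42 at ZT5 and from 18.94 over 19.55 to 20.11 at ZT9. The 3 medians were nearly equal, and the differences from ZT5 were 0.04 (−0.30 to 0.38) and 0.07 (−0.22 to 0.36). The time point effect was not called in the DVC (limma adjusted p = 0.680) or the CeA (adjusted p = 0.964). The intervals leave room for a change at ZT9 in the CeA of up to 0.36 cycles upward and 0.22 downward. The spread of Dnmt3a within time points of the CeA, an SD of 0.33 cycles, was smaller than that of all but 9 genes, or 6.34%, and the median SD was 0.52. Its SD in the DVC was 0.51, close to the median there.

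**Figure D3:**
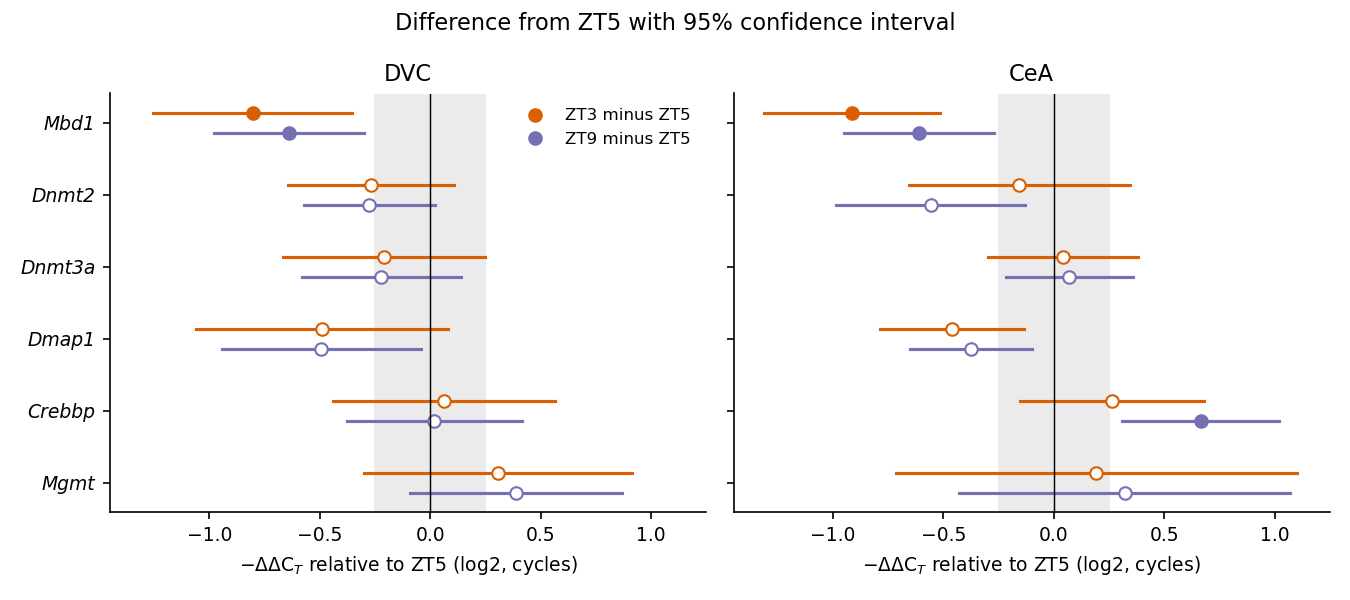
Mean −ΔΔC_T at ZT3 and ZT9 relative to ZT5 in log2 cycles, with 95% confidence interval, for Mbd1, Dnmt2 and Dnmt3a and for the related genes Dmap1, Crebbp and Mgmt. Filled points have a limma adjusted p of at most 0.05 and the grey band marks ±0.25 cycles, the size the study used as a threshold. Filled points are the 4 Mbd1 differences and Crebbp at ZT9 in the CeA.

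Between the regions, with the authors' quantile normalization, Mbd1 and Dnmt2 were higher in the DVC than in the CeA and Dnmt3a was level. Averaged over the 3 time points, DVC minus CeA was 0.80 for Mbd1 (0.57 to 1.02, limma adjusted p = 2.68e-09) and 0.54 for Dnmt2 (0.31 to 0.78, adjusted p = 2.52e-05). For Dnmt3a it was 0.01 (−0.20 to 0.22, adjusted p = 0.953). Of all genes tested, 100 or 70.4% were called for a region difference, 41.5% higher in the DVC and 28.9% higher in the CeA, so 2 called of 3 genes is near the share of the panel.

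Mbd1 was higher in the DVC at each time point, by 0.88 at ZT3 (limma adjusted p = 0.00196), 0.78 at ZT5 (adjusted p = 2.62e-05) and 0.74 at ZT9 (adjusted p = 0.000129). Dnmt2 differed by 0.38 at ZT3, which was not called (adjusted p = 0.219), by 0.49 at ZT5 (adjusted p = 0.00825) and by 0.77 at ZT9 (adjusted p = 0.000152). The Dnmt3a differences were −0.06, 0.19 and −0.11 and were not called at any time point. Of all genes tested, 28.2%, 36.6% and 33.8% were called higher in the DVC at ZT3, ZT5 and ZT9.

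Animals that gave both regions showed the same order. Mbd1 was higher in the DVC in 26 of 30 animals, with differences from −0.31 over a median of 0.72 to 2.73 cycles. For Dnmt2 this held in 27 of 32 animals, from −0.60 over 0.41 to 3.43, and for Dnmt3a in 13 of 32, from −1.05 over −0.06 to 1.62. A sign-flip permutation test of the within-animal differences gave p = 1e-05 for Mbd1, the smallest value that 100000 draws can give, p = 2e-05 for Dnmt2 and p = 0.651 for Dnmt3a. The largest difference of each gene came from 1 animal, replicate 12 of ZT9. Its DVC sample had the lowest C_T of its group for all 3 genes, and its CeA sample the highest for Mbd1 and Dnmt2. Without the animals of the 4 samples that correlated least with their region, the mean within-animal differences were 0.72 ± 0.61 (SD, n = 27) for Mbd1, 0.50 ± 0.54 (n = 28) for Dnmt2 and −0.03 ± 0.42 (n = 28) for Dnmt3a, against 0.82, 0.58 and 0.04 with them.

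**Figure D4:**
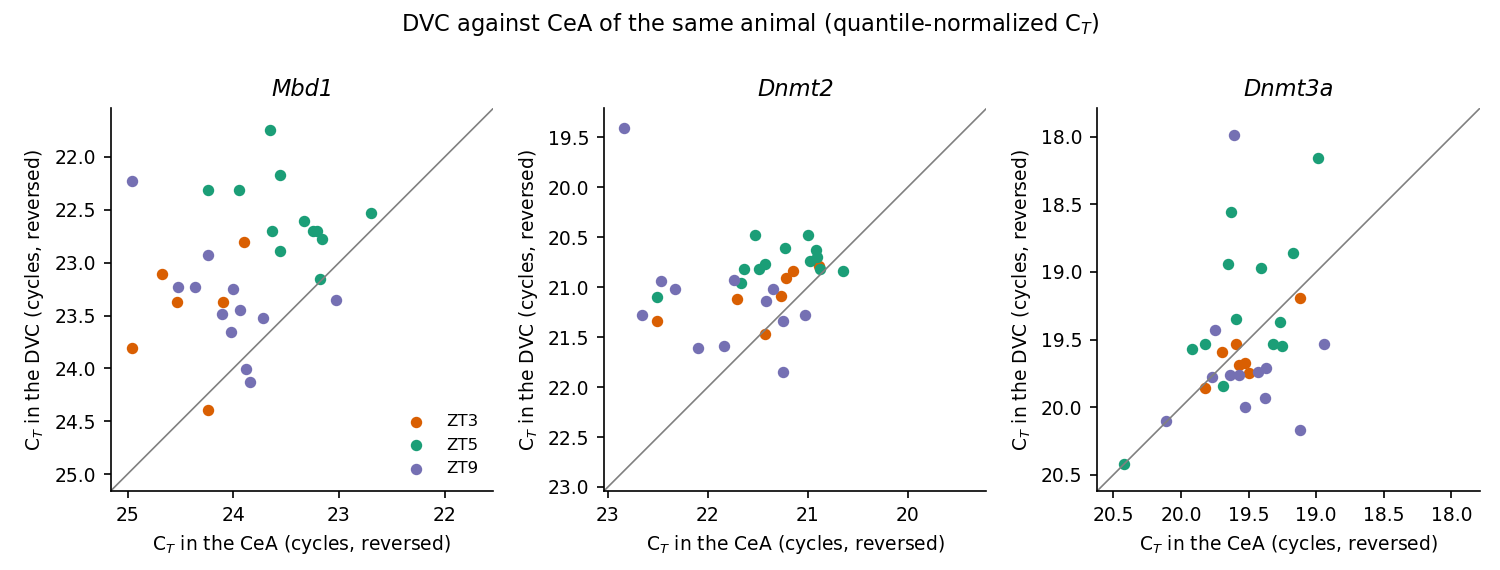
Normalized C_T in the DVC (y axis) against the CeA (x axis) of the same animal for Mbd1, Dnmt2 and Dnmt3a, in cycles, both axes reversed, with the line of equal values. Points above the line are animals with more transcript in the DVC, 26 of 30 for Mbd1, 27 of 32 for Dnmt2 and 13 of 32 for Dnmt3a.

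Region differences depended on the normalization as well, since DVC samples had earlier C_T values than CeA samples for most genes. Without normalization, or with each region normalized on its own, the median gene was higher in the DVC by 1.10 and 1.11 cycles. Without normalization 10 genes were called higher in the CeA and most called genes were higher in the DVC. With each region on its own the split was 117 higher in the DVC and 11 higher in the CeA, against 59 and 41 with the authors' values. Relative to that median, Mbd1 was higher in the DVC by 0.34 and 0.29, Dnmt2 by 0.33 and 0.29, and Dnmt3a differed by −0.06 and −0.07. With median centring Mbd1 differed by 0.40 (limma adjusted p = 0.00572) and Dnmt2 by 0.37 (adjusted p = 0.00557). With the centring done within each set of assays, Mbd1 differed by 0.19 (adjusted p = 0.142) and Dnmt2 by 0.15 (adjusted p = 0.215), neither of them called, and Dnmt3a was lower in the DVC at −0.24 (adjusted p = 0.0129). The order of the 3 genes, with Dnmt3a lowest in the DVC relative to the CeA, was the same under all 5 normalizations.

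The time course of the 3 genes was not shown to differ between the regions. The interaction of region and time point had limma adjusted p = 0.994 for Mbd1, 0.789 for Dnmt2 and 0.789 for Dnmt3a. It was called for 0 genes of the panel, a share of 0%, and 16 genes or 11.3% had an unadjusted p of at most 0.05, none of the 3 among them. The ZT3 difference of Mbd1 in the DVC minus that in the CeA was 0.11, with an interval from −0.47 to 0.69, and for ZT9 it was −0.04 (−0.50 to 0.43). The intervals thus leave room for differences close in size to the time point differences themselves. Alignment scores, which the study defined from the angle between the mean C_T values of the regions and which rise as the time courses become more alike, were 5.59 for Mbd1, 4.66 for Dnmt3a and 4.53 for Dnmt2. Those scores had ranks 9, 56 and 69 of 144 genes.

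Across animals, the level of a gene in the DVC was compared with its level in the CeA after the time point means of each region had been removed. Mbd1 had Pearson r = −0.367 (permutation p = 0.0580, adjusted p = 0.323) and Spearman rho = −0.403 (p = 0.0369, adjusted p = 0.331) over 30 animals. Without the 2 animals farthest from the median DVC value, r was −0.177 (permutation p = 0.385). Leaving out extreme values narrows the range, so this drop cannot show whether the relation rested on those animals. Without normalization the sign turned for Mbd1 (r = 0.314, p = 0.113) and for Dnmt2 (r = 0.449, p = 0.0115), while Dnmt3a kept its sign (r = 0.392, p = 0.0375). Dnmt3a had r = 0.408 (p = 0.0363, adjusted p = 0.323) and rho = 0.335 (p = 0.0734, adjusted p = 0.394) over 32 animals, and r = 0.485 (p = 0.0146) without the 2 farthest. For Dnmt2, r was −0.177 (p = 0.437, adjusted p = 0.843) and rho 0.0503 (p = 0.796, adjusted p = 0.983), and r changed sign to 0.320 (p = 0.103) without the 2 farthest. Among the higher-numbered animals alone r was −0.389, −0.419 and 0.203 for Mbd1, Dnmt2 and Dnmt3a. The same relation was computed for every gene with at least 20 pairs, with a median r of 0.0643, and of these genes 0 had a Pearson adjusted p of at most 0.05 and 3 a Spearman one. None of the 3 genes passed the adjustment.

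The panel held 3 further genes with a part in chromatin or DNA methylation chemistry. Dmap1 encodes a DNMT1-associated protein of chromatin remodelling complexes, Crebbp the CREB-binding histone acetyltransferase, and Mgmt the enzyme that removes alkyl groups from guanine in DNA. For a time point effect, 0 of the 3 were called in the DVC and 0 in the CeA, beside 10.3% and 3.52% of all genes. Of their single differences from ZT5, 1 was called, Crebbp at ZT9 in the CeA, which was higher by 0.67 (0.31 to 1.02, limma adjusted p = 0.0253). This difference was 0.60 among higher-numbered animals alone (limma adjusted p = 0.0636) and 0.53 among lower-numbered ones (limma adjusted p = 0.602). It was thus called in neither set on its own. Higher levels at ZT9 than at ZT5 in the CeA were called for 2.11% of the genes. Crebbp C_T there ranged from 17.65 over a median of 18.61 to 19.60 at ZT5 and from 17.30 over 18.01 to 18.61 at ZT9. All 12 ZT9 samples thus had a C_T below the ZT5 mean of 18.69, on the other side from Mbd1.

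Dmap1 had differences of the same sign as Mbd1, with −0.49 at both time points in the DVC, and with −0.46 at ZT3 and −0.37 at ZT9 in the CeA, none of them called (limma adjusted p from 0.111 to 0.457). DVC ZT5 replicate 17, one of the low-correlation samples, had a Dmap1 −ΔΔC_T of 3.21, where no other ZT5 sample exceeded 0.38. Without the low-correlation samples the DVC differences were −0.25 and −0.29 (adjusted p = 0.396 and 0.141). Its time point effect had adjusted p = 0.248 in the DVC and 0.0889 in the CeA. It was also higher in the DVC than in the CeA, by 0.65 (0.40 to 0.90, adjusted p = 5.57e-06). Mgmt differed from ZT5 by 0.31 (ZT3) and 0.39 (ZT9) in DVC samples and by 0.19 and 0.32 in CeA samples, and was not called. Without the low-correlation samples its CeA differences were 0.42 and 0.55, also not called.

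Over the 4 mean differences from ZT5, at ZT3 and ZT9 in each region, the genes nearest to each of the 3 were found by Euclidean distance among 138 others. Nearest to Mbd1 were the corticotropin-releasing hormone receptor Crhr1 at 0.56 cycles, Dmap1 at 0.62 and the ubiquinone synthesis gene Coq7 at 0.77, against a median distance of 1.64. Dnmt2 lay nearest to the glutamate receptor Grm5 (0.21), the thioredoxin-related Txndc1 (0.29) and the sorting nexin Snx10 (0.38). Dnmt3a lay nearest to the G-protein signalling regulators Rgs19 (0.18) and Rgs14 (0.21) and to the arrestin Arrb2 (0.23). Without the low-correlation samples, Crhr1 was still nearest to Mbd1 (0.56), Grm5 (0.17) and Txndc1 (0.34) to Dnmt2, and Rgs14 (0.13) was second to the glutamate receptor Grin1 (0.12) for Dnmt3a, whereas Dmap1 was no longer among the 3 nearest to Mbd1. A mean difference below −0.25 cycles at both ZT3 and ZT9 in both regions was found for 4 genes, or 2.88%, namely Mbd1, Dmap1, Crhr1 and Ren1. Without the low-correlation samples the 4 were Mbd1, Dmap1, Crhr1 and Grin2d. Among the first 4, Mbd1 alone was called for a time point effect in either region.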

How the data were processed

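RNA of 72 samples was reverse transcribed, pre-amplified and measured on microfluidic qRT-PCR arrays. The authors took C_T values from the instrument software and discarded failed reactions. The authors deposited these C_T values and quantile-normalized C_T values, both log2 measures in cycles. Quantile normalization equalizes the distributions of all samples, so a shift shared by all genes is removed. A gene's value then depends on its rank among the assays measured in that sample. In the 2 CeA samples with 74 and 78 failed reactions, that rank was taken over the remaining assays only. The deposited means and differences of means were not used. The number of template molecules is unknown, so no counting error can be given and the number of animals limits precision. Columns named for the nucleus tractus solitarius were matched to DVC samples by animal number.

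Samples were grouped by labelled region and time point. The 3 genes, the related and marker genes and the tests were chosen with earlier results of these data known. Named beyond these were the 3 genes nearest each of the 3, among those with at least 5 values in every group. Time points were compared per region with limma 3.58.1 in R 4.3.3 (gene-wise least squares, moderated variances, all 3 time points in the fit) for genes with at least 2 values per time point. Regions and the interaction were fitted over all samples with the animal as a random block, since the labels give the DVC and CeA samples of an animal the same number. The consensus correlation within animals was 0.0675. Adjusted p-values cover all genes tested. Permutation tests in Python 3.11.15 (numpy 2.4.6, scipy 1.17.1, pandas 2.3.3) of single differences enumerated all splits where a group had under 10 samples. All other permutation tests, including those of the time point effect, drew 100000. Figures used matplotlib 3.10.9. Procedures were tested on simulated data. Other normalizations, filters, divisions of the animals, blocks and left-out samples were tried as alternatives. Comparison of 2 genes within a sample and omission of the samples with r below 0.93 were chosen after seeing the data.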

Additional observations from a re-analysis of the deposited data

How the results depend on the processing

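The number of the 3 genes called for a time point effect was 1 in each region, and that of called single differences 2 in each. Median centring, centring within assay sets and no normalization each gave 0 for all 4 counts, and so did, in the DVC, higher-numbered animals alone and the restriction to genes measured in every sample, which removes Mbd1 from the test. With the division of the animals as a factor 1 single difference was called in the DVC, and with under 10% failed reactions 1 in the CeA. The study's test over time points without adjustment had p of at most 0.05 for 2 genes in the CeA. Without the samples of low correlation 2 genes had a time point effect in the DVC and 3 single differences were called. Leaving out 1 sample gave 1 to 2 genes and 1 to 3 differences in the DVC, and 1 gene and 1 to 3 differences in the CeA. Single-sample losses in the CeA concerned Mbd1 at ZT9, without ZT5 replicate 5, 17 or 18 or ZT9 replicate 12. With centring within assay sets the region difference was called for 1 gene instead of 2. That gene was Dnmt3a, lower in the DVC at −0.24, and neither Mbd1 nor Dnmt2 kept its call. With genes measured in every sample it was also called for 1 gene (35 of all genes instead of 100). The interaction was called for 0 throughout. Among all genes, time point effects numbered 15 in the DVC, 9 without normalization and 3 among higher-numbered animals. In the CeA they numbered 5, with 2 under either centring, 1 without normalization, 3 with under 10% failed reactions or with the division of the animals as a factor, 8 with the median C_T before normalization as a covariate, 21 by the unadjusted test (31 in the DVC) and 2 to 9 when 1 sample was left out.

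Replicate numbers at different time points name different animals, whose deviations correlated from −0.357 to 0.574 (median 0.0185), so they share only a number. A block on that number models no known link between samples, so its calls cannot show whether a result is stable. With the replicate block, no single difference was called in the DVC (0, with Mbd1 at adjusted p = 0.0704 and 0.0590), whereas the Mbd1 time point effect (0.0464) and both differences in the CeA kept their calls. All genes called rose from 15 to 31 in the DVC and from 5 to 14 in the CeA. The block turned Dnmt3a at ZT3 in the DVC to 0.16 and Dnmt2 at ZT3 in the CeA to 0.069. The fit without an animal block changed no region call of the 3 genes.

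Other changes of sign concerned, with few exceptions, differences that were never called, and the cause was not tested. Without normalization, where the median gene of the DVC moved by 0.73 and 0.49 and that of the CeA by 0.61 and 0.13, the DVC differences at ZT3 and ZT9 were 0.21 and 0.062 for Mbd1, 0.63 and 0.24 for Dnmt2 and 0.39 and 0.22 for Dnmt3a, and at ZT3 in the CeA 0.18 for Mbd1 and 0.69 for Dnmt2. ZT9 minus ZT3 of Mbd1 became −0.15 (DVC) and −0.50 (CeA). With median centring it was −0.011 and −0.000726, and with centring within assay sets −0.076 and −0.028. Leaving out 1 DVC sample gave −0.017 (without ZT3 replicate 7) to 0.30. Dnmt2 at ZT3 was 0.028 (DVC) and 0.019 (CeA) with median centring and 0.063 and 0.035 within assay sets. Dnmt3a became 0.14 at ZT9 in lower-numbered DVC animals, −0.094 and −0.13 in higher-numbered CeA animals and −0.010 at ZT3 in the CeA with the division as a factor. Leaving out 1 CeA sample gave −0.029 to 0.088 for Dnmt3a at ZT3 and −0.25 to 0.020 for Dnmt2. DVC minus CeA of Dnmt3a was 0.97 at ZT3 and 0.93 at ZT9 with each region normalized alone, 0.80 and 1.14 unnormalized, −0.024 on average with median centring, −0.24 on average and −0.055 at ZT5 within assay sets, 0.14 at ZT9 in higher-numbered animals and −0.041 on average without the low-correlation samples. The within-animal correlation between regions became 0.314 for Mbd1 and 0.449 for Dnmt2 without normalization, and 0.320 (without the 2 farthest animals) and 0.183 (without the low-correlation animals) for Dnmt2.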
